A study of Mus musculus with 2 samples.

Results

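Some probes of the mouse array are named by a genomic region and a strand letter, F or R, in place of a transcript. Of the 3540 regions named in this way, 1067 had probes for both letters and are described here, with 9682 of the 55681 non-control probes on the array. The RNA came from pre colony forming unit-erythrocyte (pre CFU-E) cells, early erythroid progenitors sorted from bone marrow as cells without lineage markers and Sca1, with no or low FCgRII/III, with low CD41, and positive for c-Kit, CD150 and endoglin. The donors were C57BL/6 wild-type (WT) mice and ESAM-KO mice, which lack the endothelial cell-selective adhesion molecule in every cell and were bred from heterozygous parents, and the mice of the study were young adults. All had received a single injection of 120 mg/kg of 5-fluorouracil (5-FU), a drug that kills dividing marrow cells, 8 days before. Each genotype was measured on 1 array with cells pooled from 3 mice, so that neither an SD nor a p-value can be given, and genotype cannot be told apart from the pool, the sort or the amplification.

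Large intergenic noncoding RNAs (lincRNAs) are long, often spliced transcripts that lie between protein-coding genes and carry no evident open reading frame. Many are found by chromatin marks of active genes outside known genes, which show where a transcript lies but not on which strand, so that an array needs probes for each strand of such a region. In blood formation, several lincRNAs are known to be switched on during erythroid maturation and to act on survival or gene regulation. The files call the probes by region alone and name no gene or transcript for them. According to the file headers the array was designed on build mm9 (NCBI37). No gene annotation of that build was used here, so whether a region overlaps an exon, an intron or a UTR is not given, and the probe sequences were not used here.

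The 1067 regions lay on all 19 autosomes, with 1042 regions, and on the X chromosome, with 25. Their length ran from 5026 to 508115 bases, with a median of 17901. Between 2 and 20 probes covered a region, with a median of 10, and 4893 probes were F and 4789 were R. The number of probes was the same on each strand for 596 regions, 327 of them with 5 on each strand and 73 with 1 on each. Some regions share sequence, as 62 of them overlapped another in 31 pairs. Each probe was a single spot, and 1 probe was left out because the scanner software marked its spot as an outlier.

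The authors deposited the spot intensity after background subtraction, without scaling between the arrays. It is given below as scaled signal, the intensity divided by the 75th percentile of its own array, which was 201.4 for WT and 251.1 for ESAM-KO. Log2 ratios set the scaled signal in ESAM-KO against that in WT, so that values above 0 are higher in ESAM-KO. A mean of scaled signal over probes is taken on the log2 scale throughout, and so is a geometric mean. The scanner software's own error of a single log2 ratio had a median of 0.21 for the region probes well above background on both arrays. The labels describe double-stranded cDNA, made by whole transcriptome amplification and labelled by DNA polymerase, and do not state that the strand of the RNA was kept. A signal on F or R probes is therefore a signal of those probes and cannot be assigned to RNA of one strand. Probes also bind with different strength, so a difference between F and R on a single array is not a difference in RNA level, whereas each probe's own ratio between arrays, and the change of the strand difference between arrays, set a probe only against itself.

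The cells and labels were checked on named genes. All 8 genes of the pre CFU-E list were well above background on both arrays, among them Kit (scaled signal 16.9 in WT and 13.2 in ESAM-KO), the receptor of the sort, and Gata1 (29.6 and 23.5), the erythroid transcription factor. Slamf1, for the CD150 of the sort, was the dimmest (0.0884 and 0.0916). Its intensities of 17.8 and 23.0 were near the lowest well above background, 12.6 and 13.2. Log2 ratios of the list ran from -0.80 (Eng) to 0.89 (Tfrc), with a median of -0.33 and 0 genes past 2-fold. The targeted gene Esam was at 0.136 and 0.0820, a log2 ratio of -0.73 with a scanner error of 0.31, at a dim probe. Of the lists used, that of neutrophil genes, whose cells a sort without lineage markers is meant to remove, differed most between the pools. All 5 genes of the list were lower in ESAM-KO, with a median log2 ratio of -3.37, and their summed scaled signal was 59.4 in WT and 5.38 in ESAM-KO. The macrophage list summed to 33.3 and 29.5, nearly all of it from Csf1r, with C1qa higher (0.0879 and 0.200), Vcam1 lower (0.603 and 0.0819) and Adgre1 near background. The B cell list summed to 0.381 and 0.351 and the T cell list to 0.641 and 0.848, with Ms4a1, Cd3g and Cd8a not well above background on either array. Of the stem cell list, Mecom was below background on both arrays, and Ly6a, which encodes the Sca1 that the sort excludes, was above background in WT at 0.303 but not in ESAM-KO at 0.0489, a bound of -2.53. The part of such cells in the results below was not tested.

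Most regions had at least 1 probe above background on each strand. On the WT array 54.5% of the region probes were well above background, and on the ESAM-KO array 61.0%. For all non-control probes these shares were 57.1% and 61.0%, so the region probes were detected less often than probes in general on the WT array and as often on the ESAM-KO array. A region was counted as detected on a strand when at least 1 of its probes there was well above background. With most region probes above background and a median of 10 probes per region, this rule alone favours detection on both strands. The number it would give for probes grouped without regard to region was not computed. Both strands were detected for 822 regions in WT and 851 in ESAM-KO, F alone for 102 and 92, R alone for 94 and 86, and neither strand for 49 and 38. The number detected on F alone was thus close to that on R alone on each array. Regions with no detected strand had few probes, with a median of 4 compared with 10 for regions detected on both strands.

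**Figure D1:**
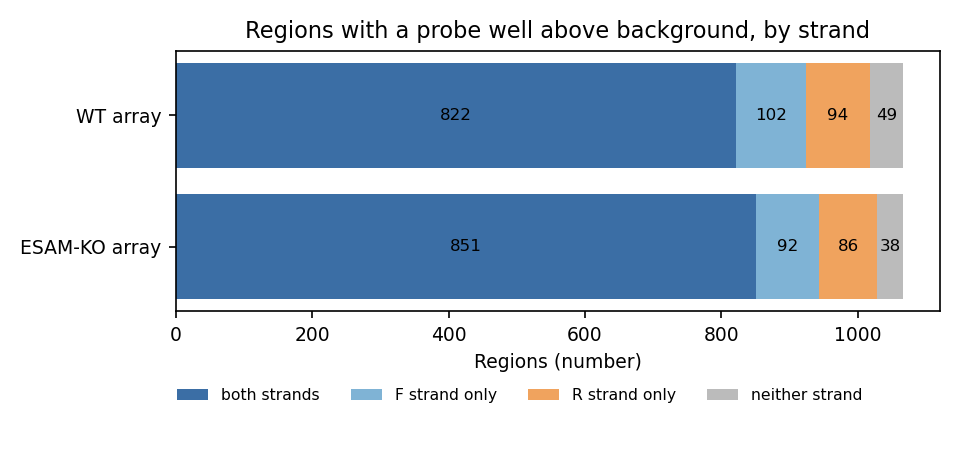
Number of regions (horizontal axis) with at least 1 probe well above background on both strands, on F or R alone, or on neither, for the WT and the ESAM-KO array; the 4 segments of a bar sum to the 1067 regions. Both strands were detected for 822 regions in WT and for 851 in ESAM-KO.

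The strand on which a region was detected was mostly the same on both arrays. Of the 102 regions detected on F alone in WT, 67 were again detected on F alone in ESAM-KO, 30 on both strands and 4 on neither. Of the 94 detected on R alone in WT, 61 were again detected on R alone, 29 on both strands and 3 on neither. Only 2 regions went from one single strand to the other, chr10:66349796-66378261 and chr13:114486580-114532455, named after their values were seen, and each rested on 1 probe per array. Both strands were lost together for 1 region, chr7:7075114-7089895, with 1 probe on each strand. Its scaled signal was 0.177 in WT and 0.0327 in ESAM-KO for F and 0.113 and 0.0224 for R. Neither strand in WT but both in ESAM-KO were detected for 4 regions, also named after their values were seen. Of these, chr3:35782698-35789748 had 3 of 4 probes above background on each strand in ESAM-KO, and the others, chr12:21380896-21387071, chr17:22815742-22828592 and chr9:31834945-32015745, had 1 or 2 on a strand.

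A region detected by every probe of one strand and by no probe of the other was rare. Among the 748 regions with at least 3 probes on each strand, 68 had every probe of both strands above background on both arrays and 12 had none on either array. Just 1 region, chr12:76744947-76778372, had all 5 F probes and none of its 5 R probes above background on both arrays. Its mean scaled signal was 0.248 in WT and 0.283 in ESAM-KO for F, and 0.0189 and 0.0131 for R. The opposite pattern, all R and no F, was found for 0 regions. Across these 748 regions, the share of F probes above background increased with the share of R probes (Pearson r of 0.59 in WT and 0.62 in ESAM-KO). These r describe regions measured on the same 2 arrays, which are not independent replicates. Detection varied little with region length, with 55.3%, 55.8%, 53.1% and 53.8% of probes above background in WT from the shortest to the longest quartile of regions.

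The difference between F and R signal was large within arrays and did not lean to one letter. It was measured for the 778 regions that had at least 1 probe well above background on both arrays on each strand, as the mean log2 signal of the F probes minus that of the R probes. Its median was 0.11 in WT and 0.06 in ESAM-KO, with quartiles of -0.94 and 1.10 in WT and of -0.90 and 1.10 in ESAM-KO. The strands differed by more than 2-fold for 51.3% of regions in WT, with F brighter for 214 and R brighter for 185. In ESAM-KO this share was 51.4%, with F brighter for 215 and R brighter for 185. Single probes of one strand of one region also differed, with a median SD of 1.22 (WT) and 1.20 (ESAM-KO) on the log2 scale over the 1204 strands with more than 1 probe.

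Strand differences were alike on both arrays. F minus R had the same sign in WT and ESAM-KO for 695 of the 778 regions, or 89.3%, and of the 83 that changed sign, 0 were past 2-fold on both arrays. Across regions, F minus R in ESAM-KO increased with that in WT, with a Pearson r of 0.95 and a Spearman rho of 0.92. Both arrays share the probes, and with them whatever strength of binding each probe has, so these values do not show that the RNA itself came from one strand. The absolute strand difference was smaller in ESAM-KO than in WT for 385 of the 778 regions.

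**Figure D2:**
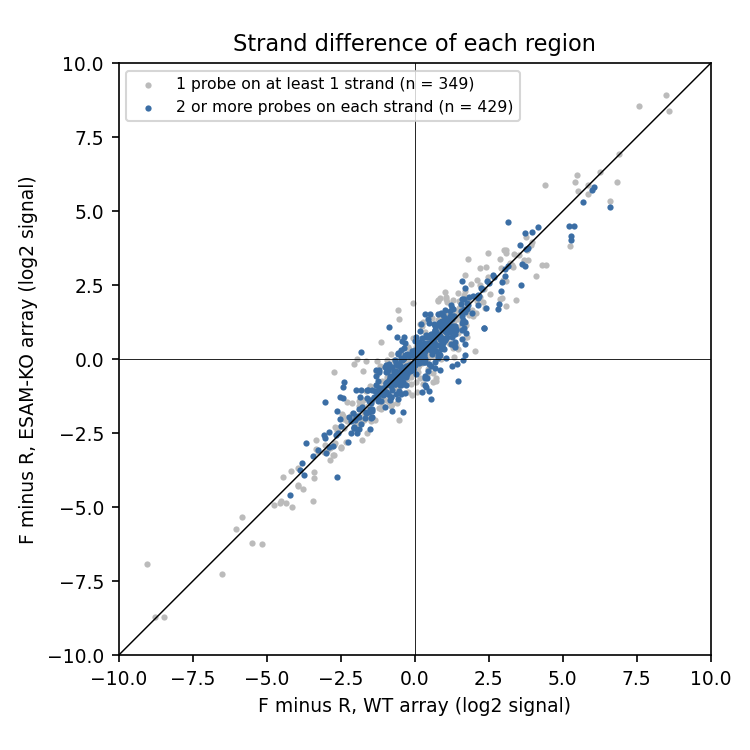
Mean log2 signal of the F probes minus that of the R probes of each region on the WT array (horizontal axis) and on the ESAM-KO array (vertical axis), for 778 regions; blue points are the 429 regions with 2 or more measured probes on each strand and the line marks equal values. Points lie along the line, with a Pearson r of 0.95, and 89.3% keep the sign.

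For 30 of the 429 regions with 2 or more measured probes on each strand, or 6.99%, the F and the R probes did not overlap on either array. Every F probe was brighter than every R probe for 16 of them, and every R probe brighter than every F probe for 14. How often probes grouped without regard to strand would not overlap was not computed, so the share of 6.99% has no baseline. Among the 30 regions, the 5 largest strand differences were as follows. For chr14:78924115-78938125 the geometric mean of the scaled signal of 2 F probes was 42.0 in WT and 37.7 in ESAM-KO. That of 2 R probes was 0.807 and 0.946. F thus exceeded R by 52.1-fold in WT and 39.9-fold in ESAM-KO, although the 2 F probes themselves ran from 3.24 to 545.9 in WT.

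The region chr1:134867906-134885481 carried the most probes of these 5, with all 9 F probes and all 10 R probes well above background on both arrays. Its F probes had a mean of 12.7 in WT and 11.4 in ESAM-KO and its R probes one of 0.303 and 0.500, a difference of 42.0-fold and 22.8-fold. The lowest F probe in WT was at 2.98 and the highest R probe at 1.51, so no probe of either strand reached into the range of the other. For chr6:83368261-83407280, F was at 14.2 and 12.5 and R at 0.148 and 0.355, and for chr17:79042382-79051807, F was at 6.89 and 5.94 and R at 0.175 and 0.328. R was the brighter strand at chr8:90000619-90061169, with 3.66 and 3.91 for R and 0.199 and 0.163 for F. In all 5 of these the brighter strand was within 2-fold between the arrays, with log2 ratios between -0.21 and 0.10. Of the dimmer strands, that of chr6:83368261-83407280 was past 2-fold, at 1.26, on probes that ran from -0.29 to 2.74. Over all 30 regions the median log2 ratio was 0.07 for the brighter strand and 0.10 for the dimmer.

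The 3 brightest regions, by the mean over strands and arrays, had signal on each strand and no probe past 2-fold. At chr17:39960567-39992817 the 4 F probes had a mean scaled signal of 1149 in WT and 797 in ESAM-KO and the 5 R probes one of 507 and 417. At chr12:82495575-82516300 the values were 28.9 and 36.4 for F and 38.5 and 46.3 for R. At chr14:55433382-55452757 they were 43.0 and 34.5 for F and 19.1 and 15.9 for R. The first region had the highest mean on each strand, with its dimmest probe at 132.4 in WT and 116.4 in ESAM-KO. The second was slightly higher in ESAM-KO and the other 2 slightly lower, by log2 ratios of up to -0.53.

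Probes of opposite strands lay only slightly farther apart in signal than probes of the same strand, but their signals were less correlated. Over all 7925 pairs of measured probes on the same strand of a region, the median absolute log2 difference in signal was 1.45 in WT and 1.40 in ESAM-KO. Over the 8164 pairs on opposite strands it was 1.57 and 1.53. For pairs of region probes from different regions it was 2.01 and 2.02, so sharing a region brought probes closer by more than sharing a strand within it. The correlation of the paired signals was 0.41 for same-strand and 0.28 for opposite-strand pairs in WT, and 0.42 and 0.30 in ESAM-KO. A region with many probes enters with many pairs. With each region given the same weight, the medians were 1.48 and 1.52 in WT, and 1.42 and 1.51 in ESAM-KO.

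The same order was found for the ratio between the arrays. The log2 ratios of same-strand pairs differed by a median of 0.45, those of opposite-strand pairs by 0.50 and those of probes from different regions by 0.61. Of the same-strand pairs 77.9% had ratios within 2-fold of each other, compared with 76.1% of opposite-strand pairs and 70.3% of pairs from different regions. The correlation was 0.33 and 0.27 for same-strand and opposite-strand pairs. With each region given the same weight, the medians were 0.46 and 0.47, so that the strand of a partner probe made nearly no difference to how far the ratios lay apart.

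Region probes were more often higher than lower in ESAM-KO. A ratio could be given for 6129 region probes, 4987 of them well above background on both arrays and 1142 as a bound because the probe was above background on one array only. By more than 2-fold, 797 were higher, or 13.0% of those with a ratio, and 422 were lower, or 6.89%. Over all non-control probes with a ratio the shares were 9.18% higher and 7.68% lower. The probes of regions with a single strand lay between in the share higher, 11.1%, but not in the share lower, 6.66%. Probes named for protein-coding transcripts (NM accessions) had 7.84% higher and 8.70% lower, and those for annotated noncoding transcripts (NR accessions) 7.12% and 7.75%. Of the region probes past 2-fold, 65.4% were higher in ESAM-KO, a share that was 83.8% without scaling between the arrays and 55.7% after scaling to the median of each array.

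The excess was smaller among probes well above background on both arrays. Of the 4987 such region probes, 453 were higher, or 9.08%, and 313 lower, or 6.28%, compared with 6.57% and 6.63% of all non-control probes. Their median log2 ratio was 0.03, and that of all non-control probes was -0.01. Of the F probes 8.10% were higher and 6.04% lower, and of the R probes 10.1% and 6.53%. Region probes were also dimmer, with a median scaled signal of 0.472 in WT, than NM probes, with 1.13. Set against all other probes within the same quartile of signal, 10.4% of region probes were higher in the dimmest quartile compared with 8.59%, 13.4% compared with 10.4% in the next, 6.36% compared with 5.06% in the third and 1.31% compared with 0.993% in the brightest. The shares of lower region probes in these quartiles were 6.71%, 8.21%, 5.87% and 1.75%, compared with 7.82%, 10.9%, 7.06% and 1.71% of all other probes. Higher region probes thus outnumbered lower ones by 165 to 106 and by 202 to 124 in the dimmer quartiles and by 77 to 71 in the third, whereas the brightest had 9 higher and 12 lower. All other probes had 512 higher and 466 lower in the dimmest quartile, 627 and 655 in the next, 320 and 447 in the third and 68 and 117 in the brightest. With 1 array per genotype these differences have no test.

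For comparison, 21 of 33 annotated long noncoding RNAs of a list had a probe named for them, and 18 were detected on each of the arrays. The median of their log2 ratios was 0.08. By more than 2-fold, 4 genes of the list were higher and 0 lower, one of the 4 as a bound because it was below background in WT. The 4 were Mir17hg, the host transcript of a microRNA cluster (0.659 in WT and 3.40 in ESAM-KO, log2 ratio 2.37), Malat1, an abundant nuclear RNA (0.442 and 1.16, 1.40), Airn, the antisense transcript of the imprinted Igf2r locus (1.06 and 2.68, 1.33), and Jpx, an activator of Xist, as a bound of 1.03. Snhg1 and Xist, among the brightest, were within 2-fold, at 0.43 and -0.21.

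The strands of a region tended to share the direction of their ratio. The mean log2 ratio over the probes of a strand had a median of 0.03 for F and 0.03 for R over the 778 regions. F and R were both above 0 for 259 regions and both below 0 for 217, so that 61.2% shared the sign, where 52.4% of F strands and 53.0% of R strands were above 0. The share was 67.6% for the 429 regions with 2 or more measured probes on each strand. Across regions, the F and R ratios had a Pearson r of 0.44 and a Spearman rho of 0.36, and of 0.55 and 0.49 in those 429 regions. F and R come from the same 2 labelled pools, so this describes how well the probes of a region agreed and not how well the genotypes would in another pool.

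**Figure D3:**
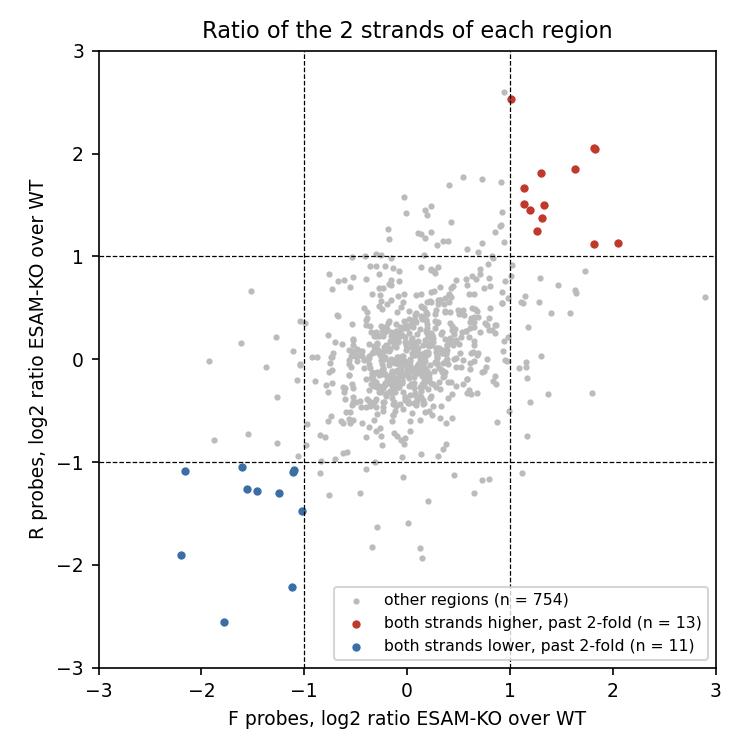
Mean log2 ratio (ESAM-KO to WT) of the F probes (horizontal axis) and the R probes (vertical axis) of each of 778 regions; dashed lines mark 2-fold, and coloured points are past 2-fold on both strands. Of these, 13 regions were higher and 11 lower, and 666 regions were within 2-fold on both strands.

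Of the 778 regions, 666, or 85.6%, were within 2-fold on both strands. By more than 2-fold, 38 regions were higher and 26 lower on F, or 4.88% and 3.34%, and 46 were higher and 27 lower on R, or 5.91% and 3.47%. Both strands were higher for 13 regions and lower for 11. Among the 38 regions higher on F, R was also higher for 34.2%, compared with 5.91% of all regions, and among the 26 lower on F, R was also lower for 42.3%, compared with 3.47% of all. A further 87 regions were past 2-fold on 1 strand only. The strands were past 2-fold in opposite directions for 1 region, chr8:94841965-94881130, named after its values were seen, with log2 ratios of 1.12 for F and -1.10 for R. Its F ratio rested on the 1 of 5 F probes above background on both arrays. Above background were 1 of 5 F probes in WT and 5 in ESAM-KO, and 4 of 5 R probes in WT and 2 in ESAM-KO. The 24 regions past 2-fold on both strands were spread over 15 chromosomes, with at most 3 on one. These counts depended on the processing. Without scaling they were 37 higher and 2 lower, and with normexp background correction and quantile normalization 1 and 0.

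In 67 of the 429 regions with 2 or more measured probes on each strand, or 15.6%, all probes differed in the same direction, 36 higher and 31 lower in ESAM-KO. How often probes drawn without regard to region would do so was not computed, so this share has no baseline. Of the 67, the 5 with the largest ratios in each direction are given in the order of the smaller strand ratio. The region highest in ESAM-KO relative to WT was chr14:62263564-62307496, for which all 7 probes of the array were measured. Its F probes had a mean scaled signal of 0.264 in WT and 0.931 in ESAM-KO and its R probes one of 0.318 and 1.32, log2 ratios of 1.82 and 2.05. Single probes ran from 0.94 to 2.94 and 6 of 7 were past 2-fold. At chr15:68161768-68193518 the signal was 0.257 and 0.797 for F and 0.162 and 0.584 for R, log2 ratios of 1.63 and 1.85. The 4 measured probes lay close together, between 1.49 and 1.87, and were all past 2-fold, which held for no other of these 5, but 4 of 10 probes were measured there.

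The other 3 higher regions had smaller ratios, with more spread between probes. At chr5:108538417-108550517 the mean scaled signal was 0.125 in WT and 0.300 in ESAM-KO for F and 0.166 and 0.394 for R. The log2 ratios were 1.26 and 1.25, on 5 dim probes of which 3 were past 2-fold. At chr1:173250734-173259306 it was 0.141 and 0.323 for F and 0.241 and 0.660 for R, log2 ratios of 1.19 and 1.45. The region chr12:72103832-72116875 had the most probes among the 5, 15 measured of 20 on the array. Its signal was 0.283 in WT and 0.624 in ESAM-KO for F and 0.506 and 1.60 for R, log2 ratios of 1.14 and 1.66, and 11 of its 15 probes were past 2-fold, with single probes between 0.47 and 2.81. As the mean of both strands, the ratios of the 5 regions lay between 0.57 and 1.24 with normexp and quantile normalization, past 2-fold for the first region only. Without the filter on dim probes that of chr1:173250734-173259306 was 0.65 in place of 1.32, and with the brightest probe of each strand that of chr5:108538417-108550517 was 0.98 in place of 1.25.

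The region lowest in ESAM-KO relative to WT was chr9:24292762-24307562, with a mean scaled signal of 0.494 in WT and 0.107 in ESAM-KO for F and 0.674 and 0.181 for R. The log2 ratios were -2.20 and -1.90, and all 7 measured probes were past 2-fold, from -3.34 to -1.05. At chr6:57583950-57624216 the signal was 0.574 and 0.209 for F and 0.910 and 0.375 for R, log2 ratios of -1.46 and -1.28. All 6 probes of the array were measured and past 2-fold. At chr4:11899775-11931875 it was 0.692 and 0.236 for F and 0.973 and 0.407 for R, log2 ratios of -1.55 and -1.26, with all 7 measured probes past 2-fold.

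The other 2 lower regions were less even. At chr6:148162552-148176577 the mean scaled signal was 0.598 in WT and 0.278 in ESAM-KO for F and 1.05 and 0.493 for R. The log2 ratios were -1.11 and -1.09, with single probes from -1.72 to -0.37. At chr3:62727150-62758225 the geometric mean of F was 13.1 in WT and 6.12 in ESAM-KO and that of R 0.975 and 0.463, log2 ratios of -1.10 and -1.08. One of its 2 F probes was at 197.0 in WT and 164.0 in ESAM-KO and the other at 0.873 and 0.228, with log2 ratios of -0.26 and -1.93, so the mean of the strand joined a very bright and a dim probe. With its brightest probes the mean of the strands was -0.49 in place of -1.09. Over the 5 regions this mean lay between -0.99 and -0.66 with normexp and quantile normalization, under 2-fold for each, and without scaling it was -0.78 and -0.77 for the last 2. In the first 3 of these regions every measured probe was lower by more than 2-fold, on both strands. Of the 429 regions with 2 or more measured probes on each strand, 3 lower and 1 higher had all measured probes past 2-fold. Agreement of probes in direction was part of the rule for naming these regions, so it lends them no support. The neutrophil genes were lower on the same array by a median log2 ratio of -3.37, and whether these regions are active in neutrophils was not tested.

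**Figure D4:**
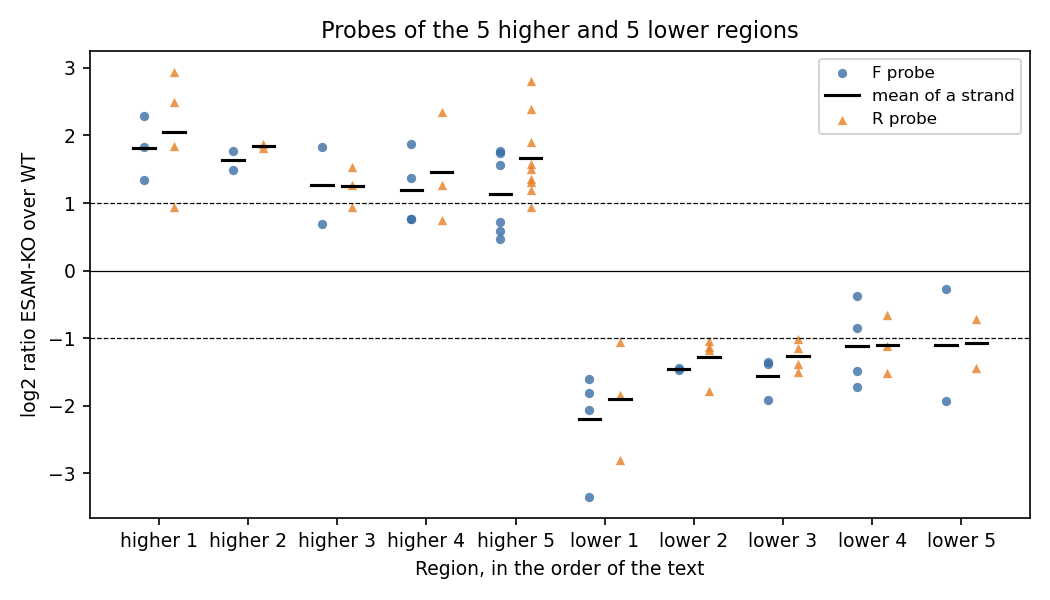
Log2 ratio, ESAM-KO to WT (vertical axis), of every measured probe of the 5 higher and the 5 lower regions, in the order of the text (horizontal axis); circles are F probes, triangles R probes, bars the mean of a strand, and dashed lines mark 2-fold. All measured probes of higher region 2 and of lower regions 1, 2 and 3 lie beyond the dashed lines.

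A probe's strength of binding is shared by both arrays, and as a factor on its signal it cancels from the change of F minus R between the arrays. The factor by which an array is scaled cancels too. The median change was 0.01, with quartiles of -0.34 and 0.30, and the extremes were -2.19 and 2.29. It was past 2-fold for 81 regions, or 10.4%, with 35 toward F in ESAM-KO and 46 toward R. In 58 of the 81 the ratios of the strands lay on opposite sides of 0. A large change itself favours this, so the 58 lend no support. With 2 or more measured probes on each strand it was past 2-fold for 38 of 429 regions, or 8.86%. How often probes grouped without regard to strand would differ by as much was not computed, so these shares have no baseline. The median SD of the ratio between single probes of one strand was 0.39. The 81 depended on the handling of dim signal, with 13 regions with normexp and quantile normalization and 159 without the filter on dim probes.

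The 5 largest changes in regions with 2 or more measured probes on each strand are as follows. At chr1:138528250-138538250, F was at 0.441 in WT and 0.154 in ESAM-KO, whereas R was at 0.160 and 0.253. The brighter letter thus went from F to R, with F minus R of 1.46 and -0.72, on 6 F and 7 R probes. The log2 ratios of its F probes ran from -2.38 to -0.44 and those of its R probes from -0.34 to 1.77, and so did not overlap. Without the filter on dim probes, over all 20 probes, its change of -2.19 was -0.65. At chr15:73455424-73477275 the 6 F probes had a mean of 0.212 and 0.235 and the 4 R probes one of 0.751 and 0.196. Its F ratios ran from -0.79 to 2.64 and its R ratios from -3.05 to -0.24, and with the brightest probe of each strand in place of the mean the change of 2.08 was -0.050, and without the filter it was 1.03.

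At chr19:57426515-57435165 the F mean was 0.578 in WT and 0.908 in ESAM-KO and the R mean 1.04 and 0.422. All ratios of its F probes, from 0.12 to 1.18, were above all ratios of its R probes, from -2.23 to -0.40, and without the filter its change of 1.95 was 3.51. At chr5:123582742-123588202 F was at 1.19 and 0.315, a log2 ratio of -1.92, and R at 0.809 and 0.799, with ratios that overlapped between the strands. At chr4:129376440-129391690 both strands were higher in ESAM-KO, F at 0.400 and 0.766 and R at 0.129 and 0.784, and the R ratio of 2.60 exceeded the F ratio of 0.94. With the brightest or the median probe of each strand its change of -1.66 was -2.59 and -2.61. The ratios of F and R probes were thus apart at the regions of chromosomes 1 and 19 and overlapped at the other 3. That of chromosome 19 had only 2 measured F probes. The 5 regions were picked by the change in these same ratios, which favours ratios that lie apart, so the separation lends them no support. The share of all regions with ratios apart was not computed. With normexp and quantile normalization the changes of the 5 were -1.08, 0.90, 1.34, -1.08 and -0.78.

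The regions were spread over all autosomes, with values that differed between chromosomes and have no test. The 19 autosomes held between 24 regions, on chromosome 19, and 83, on chromosome 1. The share of probes above background ran from 43.2% on chromosome 10 to 67.8% on chromosome 5 in WT and from 48.1% to 73.0% on the same chromosomes in ESAM-KO. It was higher in ESAM-KO on all 19. F was the brighter strand in WT for 52.6% of the measured regions, between 36.7% on chromosome 9 and 63.5% on chromosome 17.

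The median ratio of the region probes was above 0 for 14 of the 19 autosomes. The highest medians were those of chromosomes 4 (0.19) and 1 (0.14) and the lowest those of chromosomes 6 (-0.11) and 7 (-0.07). These medians covered a range of 0.29, and those of NM probes on the same autosomes one of 0.12, from -0.06 to 0.06, with a correlation of 0.19 with those of region probes over the 19 autosomes, which share the 2 arrays. Because the number above 0 follows the scaling, it was 2 after scaling to the median of each array and 19 without scaling. Past 2-fold, more region probes were higher than lower on 17 autosomes and fewer on chromosomes 6 (38 higher and 47 lower) and 16 (15 and 20). This number was not recomputed under other scalings. Of all region probes past 2-fold, 65.4% were higher, and 55.7% after scaling to the median of each array. The largest share of higher probes was found on chromosome 18, with 22.8% of those with a ratio compared with 13.0% over all regions, and the smallest share of lower probes on chromosome 13, with 1.58% compared with 6.89%. The X chromosome, with 25 regions, had 18.4% higher and 11.4% lower and a median of -0.09.

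**Figure D5:**
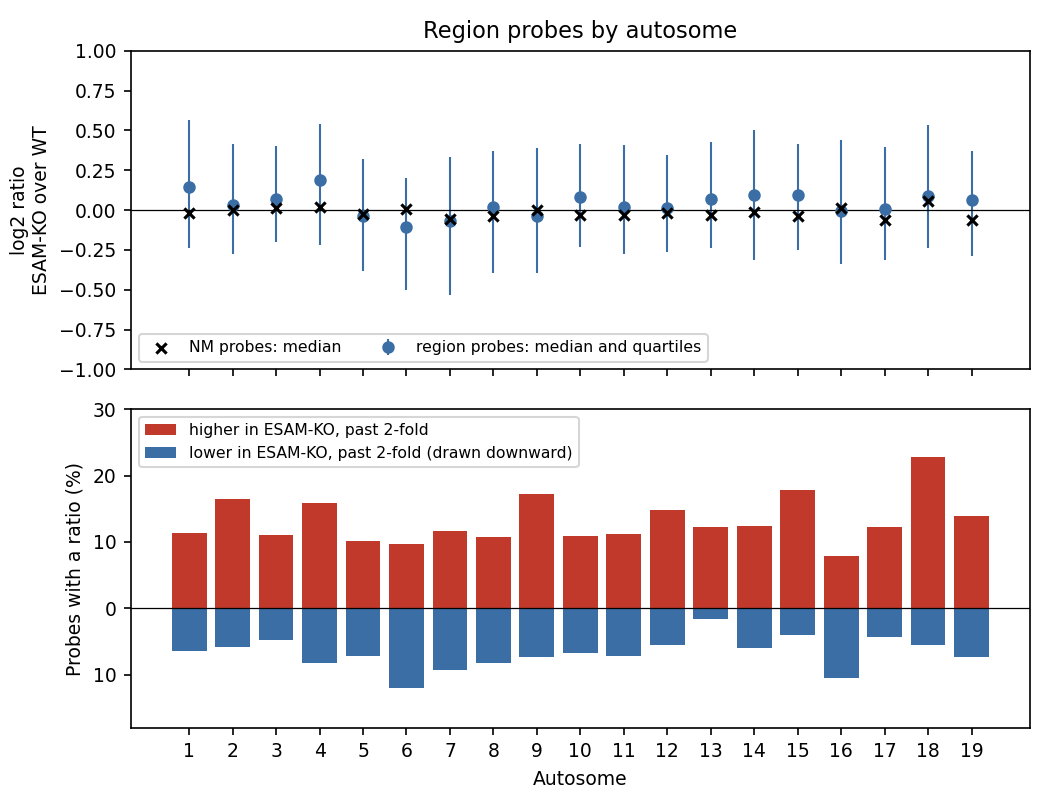
Top, median and quartiles of the log2 ratio (ESAM-KO to WT) of region probes well above background on both arrays (blue), with the median of NM probes (crosses), for each autosome (horizontal axis); bottom, percent of region probes with a ratio that were higher (red, upward) or lower (blue, downward) by more than 2-fold. Medians lie between -0.11 and 0.19, and higher probes outnumber lower ones on 17 of 19 autosomes.

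Regions next to each other on a chromosome had ratios about as different as those far apart. Neighbours with a gap under 100 kb had the same sign for 47 of 86 pairs, or 54.7%, and those farther apart for 340 of 652, or 52.1%. Overlapping neighbours had the same sign for 14 of 20 pairs, and their mean ratios differed by a median of 0.33, compared with 0.35 under 100 kb and 0.36 farther apart.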

How the data were processed

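RNA of sorted pre CFU-E from 3 pooled mice per genotype was amplified (Ovation Pico WTA System V2), labelled with Cy3 and hybridised to 1 SurePrint G3 mouse 8x60K array each. The files the authors deposited are scanner output of Agilent Feature Extraction 10.10.1.1, on build mm9 per the file headers. As deposited, they give the intensity of each spot, background-subtracted and detrended, and flags for outliers and for signal well above background. Values of the deposited series table were within 0.497% of these. A single slide and scan held both arrays. No spot was saturated.

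Each intensity was divided by the 75th percentile of the array before log2 was taken. Control spots and 254 outlier spots were left out and repeated spots averaged. To be well above background, a probe needed that flag on more than 50% of its spots. The lowest such signals were 12.6 and 13.2. A probe above background on one array only got a bound, against the higher of its own signal and that lowest signal on the dim array, and no ratio where the bound pointed the other way. Levels of regions and strands were taken over probes well above background on both arrays. Regions were matched by identical coordinates, and 13 probes named by a region without a strand letter were left out. Gene names came from RefSeq accessions of GRCm38.p6, matched for 27235 probes and used for names and chromosomes only.

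The members and lists were chosen with earlier results of these data known. Named regions followed a rule on regions with 2 or more measured probes on each strand: the 5 largest ratios in each direction with all probes on the same side of 0, the 5 largest changes and the 5 largest separations of the strands, and the 3 brightest. With 1 array per genotype no test between genotypes was run. The alternatives were other scalings, quantile normalization, normexp with an offset of 50 on median spot signals, the series table, other filters, summaries of a strand, and thresholds of 3-fold and 4-fold. Python 3.11.15, pandas 2.3.3, numpy 2.4.6, scipy 1.17.1, matplotlib 3.10.9, R 4.3.3 and limma 3.58.1 served for all steps. The script that counts regions by strand was tested on simulated data with known changes.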

Additional observations from a re-analysis of the deposited data

How the results depend on the processing

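No paired analysis was possible because WT and ESAM-KO were each measured once. The number of arrays and signal near background limit every value, and causes of the shifts below were not tested. Of the recomputed values over all regions or probes, 84 stayed within 1.5 times for counts, within the exact 95% binomial interval for shares or within the scanner software's error for signals, and 51 did not. Some of the 84 could not move, or hardly. Each region probe was 1 spot, so asking for all spots is the same filter, and keeping outlier spots returns 1 region probe. Without the filter every region counts as detected on both strands. A scaling factor cancels from the change of a strand difference. The 84 are therefore no measure of stability. Leaving out the 62 overlapping regions, chosen after seeing the data, gave 11 and 10 regions past 2-fold on both strands. Strand differences past 2-fold, 51.3% in WT and 51.4% in ESAM-KO, were 65.9% and 64.4% with the brightest probe of a strand and 45.2% and 45.9% with at least 2 probes on each. The median differences of same-strand pairs, 1.45 and 1.40, were 1.78 and 1.78 without the filter on dim probes and 1.17 and 1.12 for bright pairs, and those of opposite-strand pairs, 1.57 and 1.53, were 1.91 and 1.89, and 1.31 and 1.20. Probes higher, 797, and lower, 422, became 1250 and 242 without scaling, 209 and 116 with normexp, 1422 and 965 without the filter, 371 and 154 at 3-fold and 204 and 87 at 4-fold. The share higher, 65.4%, was 55.7% with the median, 83.8% without scaling, 60.4% with quantile normalization, 59.6% without the filter, 70.7% at 3-fold and 70.1% at 4-fold. Regions past 2-fold on both strands, 13 higher and 11 lower, became 37 and 2 without scaling, 1 and 0 with normexp, 3 and 2 at 3-fold, and 0 and 0 at 4-fold, with 50 higher without the filter and 8 with the brightest probe. Of the 13 and 11, 13 and 2 were shared without scaling and 7 and 5 with the brightest probe. The share with the same sign on both strands, 61.2%, was 65.2% with the median, 75.8% without scaling, 54.8% with the brightest probe and 67.6% with at least 2 probes on each. Changes of the strand difference past 2-fold, 81, were 13 with normexp, 159 without the filter, 123 with the brightest probe, 38 with at least 2 probes on each, 17 at 3-fold and 5 at 4-fold. Autosomes with a median above 0, 14, were 2 with the median, 9 with quantile normalization and 4 without the filter. Of the values recomputed for named regions, 40 of the higher regions, 42 of the lower and 37 of the strand changes stayed within the scanner error, and 15 (0.57 to 2.28), 13 (-1.73 to -0.49) and 17 (-2.61 to 3.51) did not, with the same sign. A further 1 changed sign, the strand change at chr15:73455424-73477275, to -0.050 with the brightest probe. The 40, 42 and 37 include the settings named above that could not move a value. For strand changes these also include every scaling by a factor, so the 37 are largely fixed in advance.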
